A study of Mus musculus with 3 samples.

Results

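The regions described here are 3601 RXRA peaks that lay inside protein-coding genes and were found in both libraries of mouse multipotent progenitors (MPP) but not in the library of hematopoietic stem cells (HSC). A member is a peak of MPP replicate 1 that overlapped a peak of MPP replicate 2 by at least 1 bp and no HSC peak. Its summit lay in a protein-coding RefSeq gene and more than 1000 bp from both ends of every such gene. The members made up 12.1% of the 29848 peaks of MPP replicate 1, and the 3 lists hold 53465 peaks. Of the 10882 peaks that the MPP libraries shared and the HSC list lacked, another 4360 lay at gene ends and 2921 between genes. Presence in the MPP lists and absence from the HSC list chose the members, so fold enrichment and absence in HSC are given below as descriptions, with no test. There was 1 HSC library, and no difference between HSC and MPP was tested.

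RXRA was mapped by CUT&RUN, in which an antibody guides a nuclease to the protein in permeabilised cells and the released DNA fragments are sequenced. Cells were taken from pooled bone marrow of 3 or 4 C57BL/6 mice about 10 months old. HSC were gated as Lin- cKit+ Sca1+ cells that were CD48- and CD150+, and MPP as Lin- cKit+ Sca1+ cells that were CD150-. The HSC assay used 10000 cells and each MPP assay used 50000. All cells of all 3 libraries were exposed to bexarotene, an RXR agonist, at a labelled 1 mM for 1 h, so there is no unexposed library here. The labels do not settle the genotype, which all 3 libraries share. The genotype entry gives it as VavCre+; WT, where the Vav promoter drives Cre in blood cells, and the sorting description gives floxed Rxra and Rxrb alleles, also called WT. Cre acting on floxed Rxra would remove the assayed protein, and whether any sorted cells carried both was not tested. The MPP gate has no CD48 criterion, so it holds all CD150- cells of the Lin- cKit+ Sca1+ compartment. The sources used here do not say whether the MPP replicates came from separate pools, and the spread between them may be technical. A library without antibody was not analysed here, and a peak list holds no markers against which the sorted cell types could be checked.

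RXRA, the retinoid X receptor alpha, is a nuclear receptor that binds DNA mostly as a dimer with partners such as the retinoic acid, vitamin D, thyroid hormone, PPAR and LXR receptors. These dimers recognise repeats of a core hexamer, AGGTCA or a close relative, and the spacing between the repeats sets which partner is preferred. Sites inside genes can be distal enhancers in introns, or promoters of transcripts that begin downstream of the outermost start of the gene.

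A landmark near a minority of the members was such an internal start. The sequences that follow are the 250 bases before the RefSeq start of 6 internal transcripts that had a member within 500 bp, read 5′ to 3′ on the transcribed strand (RefSeq, GRCm38.p6, the same assembly as mm10). Rarb and Tmem248 are shown because they hold a direct repeat of receptor hexamers, which the capitals mark. Cdkn1a and Mlxipl are shown as a cell cycle gene and a gene of the MYC, MAX and MXD network. Zfp558 and Snupn had the strongest members among starts preceded by the ETS core GGAAGT. In these last 4 windows the capitals mark any of the 7 short motifs described further on, on either strand. The windows lie at chr14:16575477-16575726 on the minus strand for Rarb and at chr5:130222085-130222334 on the plus strand for Tmem248. Those of Cdkn1a and Mlxipl are chr17:29093519-29093768 and chr5:135106641-135106890, both on the plus strand. Those of Zfp558 and Snupn are chr9:18473560-18473809 on the minus strand and chr9:56950658-56950907 on the plus strand. Each lies inside its gene, and exons, introns and UTRs were not used here.
Rarb: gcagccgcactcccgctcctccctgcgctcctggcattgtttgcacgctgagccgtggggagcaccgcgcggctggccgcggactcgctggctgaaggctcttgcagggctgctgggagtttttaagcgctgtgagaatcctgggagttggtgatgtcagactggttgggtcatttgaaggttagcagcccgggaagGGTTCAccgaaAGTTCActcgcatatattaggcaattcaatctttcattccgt
Tmem248: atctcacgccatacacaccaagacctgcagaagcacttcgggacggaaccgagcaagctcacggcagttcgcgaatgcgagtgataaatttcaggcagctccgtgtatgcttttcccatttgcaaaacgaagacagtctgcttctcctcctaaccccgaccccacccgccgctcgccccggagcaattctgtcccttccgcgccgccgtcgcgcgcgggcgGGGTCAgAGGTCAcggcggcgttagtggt
Cdkn1a: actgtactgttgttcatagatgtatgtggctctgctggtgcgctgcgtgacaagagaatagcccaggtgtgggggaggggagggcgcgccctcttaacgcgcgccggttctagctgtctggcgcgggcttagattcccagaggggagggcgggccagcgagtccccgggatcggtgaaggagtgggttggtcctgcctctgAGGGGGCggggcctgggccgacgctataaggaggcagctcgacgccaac
Mlxipl: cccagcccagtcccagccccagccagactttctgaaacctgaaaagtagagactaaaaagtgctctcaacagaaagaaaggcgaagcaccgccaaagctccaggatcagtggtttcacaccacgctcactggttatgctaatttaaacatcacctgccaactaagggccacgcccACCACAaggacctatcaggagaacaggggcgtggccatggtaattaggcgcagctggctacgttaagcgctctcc
Zfp558: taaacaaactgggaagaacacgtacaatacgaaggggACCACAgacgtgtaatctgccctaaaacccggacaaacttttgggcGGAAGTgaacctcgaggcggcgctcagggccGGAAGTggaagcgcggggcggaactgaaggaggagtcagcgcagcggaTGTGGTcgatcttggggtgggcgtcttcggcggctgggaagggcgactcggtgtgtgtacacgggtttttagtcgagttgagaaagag
Snupn: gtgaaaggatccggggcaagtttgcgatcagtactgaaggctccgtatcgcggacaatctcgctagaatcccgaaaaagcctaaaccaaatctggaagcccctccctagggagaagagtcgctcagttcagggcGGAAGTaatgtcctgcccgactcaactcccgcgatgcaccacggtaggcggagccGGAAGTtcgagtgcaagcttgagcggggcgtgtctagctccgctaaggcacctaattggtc

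Rarb encodes retinoic acid receptor beta, whose internal promoter holds a classical retinoic acid response element of the type bound by RXR with a retinoic acid receptor. The member at chr14:16575449-16575688 had its summit 24 bp from the internal start, which lies 507 kb downstream of the outermost Rarb start. The printed window holds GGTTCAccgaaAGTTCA, a direct repeat with a 5-base spacer, between 53 and 37 bases before the start. Fold enrichment over local background was 3.85 in MPP replicate 1 and 5.18 in replicate 2, below the middle of each list. The pileups, the numbers of fragments covering the summit, were 14 (95% exact Poisson interval 7.65 to 23.5) and 10 (4.80 to 18.4). The nearest HSC peak lay 1942 kb away. That absence is hard to read. The Rarb signal over the genome-wide background was 4.88 in replicate 1 and 9.25 in replicate 2. The weakest HSC peak stood at 8.28, above the first value and a little below the second. The other Rarb member, with folds of 4.61 and 4.18, lay at chr14:16559399-16559649.

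Only 3 of the 499 internal starts with a member held a direct repeat with 0 to 5 bases between its hexamers, searched on both strands of the 300 bases from 250 before to 50 after the start. The hexamer was AGGTCA or a relative (GGGTCA as in Tmem248, AGTTCA as in Nmnat3 and Rarb, or GGTTCA as in Rarb). The share was 0.601% (95% exact binomial interval 0.124 to 1.75), beside 0.710% of the internal starts without a member and 0.608% of all 21229 starts. In Tmem248 the repeat was GGGTCAgAGGTCA, with a 1-base spacer, 29 to 17 bases before the start. Its member had folds of 6.46 and 6.34. In Nmnat3, an enzyme of NAD synthesis, AGGTCAAGTTCA had no spacer and began 23 bases after the start. So a receptor repeat was found at 3 member starts, and such repeats were about as frequent at starts without a member. Starts without a member are not starts without a peak, since some of them had a peak that did not meet the rule.

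Members were far denser near annotated internal starts than in the rest of the gene bodies. RefSeq lists 3881 starts of protein-coding transcripts that lie inside a protein-coding gene and over 1000 bp from every gene end, not counting chromosome 18, which the table of start sequences used here lacks. Of the 3484 members outside chromosome 18, 447 (12.8%, 95% interval 11.7 to 14.0) had their summit within 500 bp of one. These windows made up 0.361% of the eligible gene-body sequence. Member density was 129 per Mb within them and 3.19 per Mb elsewhere, a ratio of 40.6. The median distance from summit to start was 78 bp, and 274 members lay within 100 bp. Starts of lncRNA transcripts inside these genes had 84 members within 500 bp, and 497 members (14.3%) were near a start of either kind. Of 2790 such lncRNA starts 3.33% had a member, and 7.78% had a peak of MPP replicate 1, 5.05% of MPP replicate 2 and 0.932% of HSC. Members at protein-coding internal starts had median folds of 5.17 in MPP replicate 1 and 5.90 in replicate 2, beside 4.74 and 5.58 for the others.

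Seen from the starts, 499 of the 3881 (12.9%) had a member. MPP replicate 1 had a peak of any kind at 27.1% of the internal starts, MPP replicate 2 at 20.4% and HSC at 4.07%. Starts near gene ends had a peak more often in each library, at 37.4%, 35.2% and 8.02% in the same order. The order of the 3 libraries is also the order of their list lengths. The 499 starts belonged to 436 genes, and for 287 of them (65.8%, 61.2 to 70.3) no library had a peak at the outermost start of the gene. In the 436 genes the outermost start had a peak in MPP replicate 1 for 28.7%, in MPP replicate 2 for 20.2% and in HSC for 4.13%. The 2493 other genes with internal starts gave 28.6%, 22.8% and 5.42%. The outermost start was thus marked about as often in genes with a member at an internal start as in genes without one. Cdkn1a, which encodes the cell cycle inhibitor p21, had a member 78 bp from its internal start with folds of 4.36 and 5.28, and no peak in any library at its outermost start 2.79 kb upstream. An HSC peak lay 1.58 kb from that member. Mlxipl encodes ChREBP, a glucose-responsive transcription factor, and its member lay 108 bp from the internal start, 17.0 kb downstream of the outermost one, with folds of 7.08 and 8.59. Mdm4, an inhibitor of p53, had a member 78 bp from an internal start with folds of 4.37 and 5.59.

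**Figure D1:**
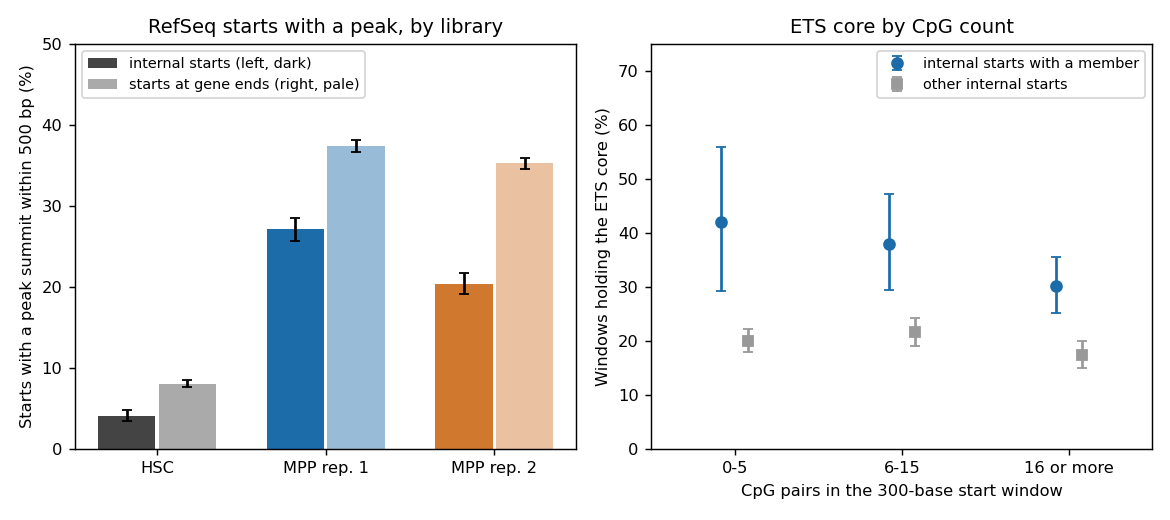
Left: percent of RefSeq protein-coding starts with a peak summit within 500 bp, for internal starts and starts near gene ends in each library. Right: percent of internal start windows holding the ETS core, for starts with and without a member, by number of CpG pairs in the window; error bars in both are 95% exact binomial intervals. MPP replicate 1 had peaks at 27.1% of internal starts and HSC at 4.07%, and starts with a member held the ETS core more often in each CpG class.

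The letters of the member starts differed from those of the other internal starts. Their 300-base windows had a median GC content of 59.7% and 19 CpG pairs, beside 53.7% and 7 for internal starts without a member. Those without a member again include starts with other peaks. MPP replicate 1 had a peak at 27.1% of internal starts, and a member stood at 12.9%. A member was present at 3.86% of starts with 0 to 5 CpG pairs, at 10.7% with 6 to 15 and at 25.3% with 16 or more. The ETS core GGAAGT stood in 33.5% (29.3 to 37.8) of the windows with a member, 19.8% (18.4 to 21.1) of those without and 24.8% of all starts. With CpG held in the same 3 classes, GGAAGT stood in 42.1%, 38.0% and 30.2% of windows with a member and in 20.0%, 21.6% and 17.4% of windows without. ETS factors such as PU.1, FLI1 and ERG are transcription factors of blood cells. Zfp558, a zinc finger gene, carries this core at 2 places in its printed window, and its member had folds of 8.27 and 10.1. Snupn encodes snurportin, which carries spliceosomal particles into the nucleus, and its window also carries the core at 2 places, with folds of 10.2 and 9.68. The summit stood 37 bp from the start in Zfp558 and 69 bp in Snupn.

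The other motifs gave a different picture. The single receptor hexamer AGGTCA stood in 12.02% (9.30 to 15.2) of windows with a member and 17.4% (16.1 to 18.7) of those without. In the CpG classes, the shares with and without a member were 10.5% and 23.3% at 0 to 5 pairs, 15.7% and 17.0% at 6 to 15, and 10.9% and 9.07% at 16 or more. The intervals overlapped in each class, in the first only just (3.96 to 21.5 with a member and 21.1 to 25.5 without). The E-box CACGTG, the site of MYC with MAX, stood in 10.0% and 5.74%, but within the class of 16 or more CpG pairs in 11.2% (7.98 to 15.2) and 9.49%. The RUNX core TGTGGT (14.0% and 16.5%), the AP-1 motif TGAGTCA (4.01% and 5.50%) and AGGGGGC, part of the CTCF motif (14.8% and 13.0%), had overlapping intervals. Within the CpG classes, lowest first, TGTGGT stood in more of the windows with a member, at 31.6%, 19.8% and 8.72% beside 22.8%, 15.7% and 8.12%, so its pooled direction turned. TGAGTCA turned in the first and second classes, with 8.77% and 8.26% beside 7.19% and 5.62%, and not in the class of 16 or more, with 1.56% beside 2.85%. AGGGGGC stood in 5.26%, 11.6% and 17.8% beside 6.13%, 12.6% and 23.6%, the reverse of its pooled direction. The GATA motif GATAAG stood in 5.01% (3.27 to 7.31) and 8.13% (7.23 to 9.10), intervals that only just overlapped. In the CpG classes, lowest first, it stood in 7.02%, 6.61% and 4.05% beside 11.0%, 8.77% and 3.16%. Its pooled direction held in the first and second classes and turned at 16 or more pairs. Among all starts these motifs stood in 14.7% (AGGTCA), 7.83% (CACGTG), 14.97% (TGTGGT), 4.66% (TGAGTCA), 12.9% (AGGGGGC) and 6.93% (GATAAG). Each motif was searched on both strands and a window was counted once, also where motifs overlapped. A match describes the letters and is not evidence of binding, and the sequence under the members away from starts was not used here.

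Members were of middling strength within their own lists. In MPP replicate 1 fold enrichment ran from 1.70 to 11.4 with a median of 4.81, beside 4.39 for the whole list. In replicate 2 it ran from 1.94 to 14.9 with a median of 5.63, beside 5.65. Peaks at gene ends chosen by the same overlaps had higher medians, 5.17 and 6.20, and those between genes had 4.79 and 5.65. The strongest 1 in 5 peaks of a list included 28.0% of the members in MPP replicate 1 and 18.4% in replicate 2, and 37.4% and 27.6% of the peaks at gene ends. Median widths were 325 and 330 bp, and the median gap between the summits of the libraries was 36 bp. Over the 3601 members Spearman's rho of fold between the replicates was 0.383, given as a description, since the sites share libraries and local sequence and the peak calls set a lower limit on fold. The members rested on median pileups of 20 and 13 fragments, so single folds are known only loosely.

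The depth of the HSC library limits what absence there can mean. Total reads were not used here. The genome-wide background recovered from the peaks was 0.604 fragments per position for HSC, and 2.87 and 1.08 for MPP replicates 1 and 2. The weakest HSC peak stood 8.28 times above that background, and the weakest peaks of the MPP lists stood 3.48 and 5.55 times above theirs. In MPP replicate 1, 1159 members (32.2%) reached 8.28, and in replicate 2, 3424 (95.1%) did. Both libraries reached it for 1145 members (31.8%), and neither for 163. So for most members a signal as strong in HSC as in MPP replicate 1 could have gone uncalled. A signal as strong as in replicate 2 would for most have reached the level of the weakest HSC peak. Less RXRA per site, fewer cells and lower sequencing depth cannot be told apart. An HSC peak lay within 1 kb of 42 members and within 10 kb of 344, and the median distance was 93168 bp. Of the 4328 gene-body peaks that both MPP libraries shared, 727 (16.8%, 15.7 to 17.9) overlapped an HSC peak and so were not members. The share was 18.1% at gene ends and 22.2% between genes.

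**Figure D2:**
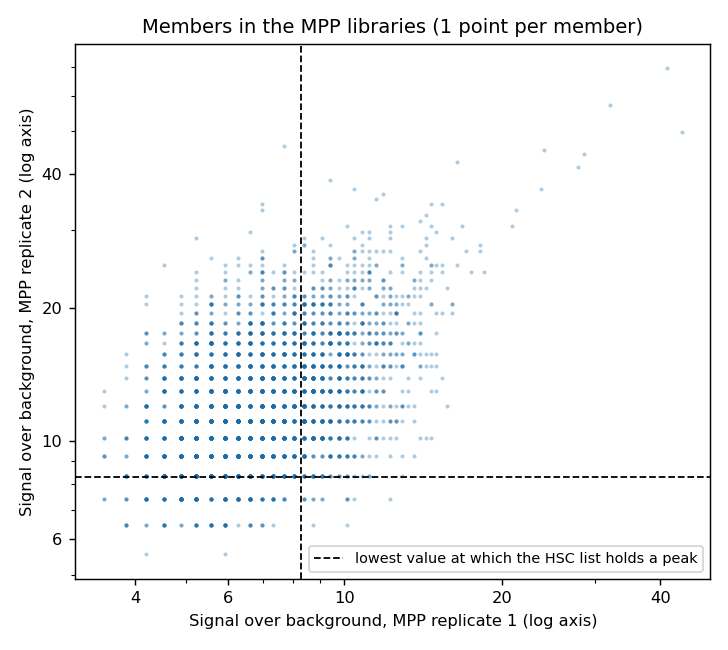
Signal over background (pileup at the summit over the lowest recovered background of its library) of the 3601 members, MPP replicate 1 on the horizontal and replicate 2 on the vertical axis, both logarithmic, with 1 point per member. Dashed lines mark 8.28, the lowest value at which the HSC list holds a peak, which 1145 members reached in both MPP libraries; the 9 points above 20 in replicate 1 are in stretches of high local background.

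A small group of members stood in stretches where the local background was itself high. In 14 members (0.389%) it was at least 5 times the lowest background in both MPP libraries, a limit chosen after the values were seen. They lay in or across Sfi1, Sp110 and Sp140, LOC100504180, Tmem267, A530032D15Rik, and Gm38510 with C130026I21Rik. Sfi1, a centrosome gene, held 7 of them. Their pileups were 61 to 126 fragments in replicate 1 and 36 to 62 in replicate 2, but their folds were only 1.70 to 3.04 and 1.94 to 2.98. All 9 members with a signal over 20 times the lowest background in replicate 1 belonged to this group. Whether reads from repeated sequence entered these stretches was not tested.

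Over all genes pooled, member density fell with distance from the start of transcription. Strand was known for 17461 genes, which hold 2116 of the host genes. Density was 10.1 members per Mb (9.26 to 11.0) between 1 and 5 kb downstream of the outermost start, 6.32 at 5 to 10 kb, 3.93 at 20 to 50 kb, 2.47 at 100 to 200 kb and 0.719 beyond 500 kb. Measured back from the end of transcription, density was 4.74 (4.18 to 5.35) at 1 to 5 kb and 4.87 at 20 to 50 kb, and fell below 4 only beyond 100 kb. It was 1.68 at 200 to 500 kb from the end and 0.343 beyond 500 kb. Within 50 kb the pooled profile was thus steep at the start and flat at the end of genes. Only long genes reach the far distances, and genes above 500 kb held 0.685 members per Mb. Distance and gene length are therefore not separated there. Part of the rise lay at internal starts: without the members near them, density at 1 to 5 kb from the start was 6.21 (5.57 to 6.90), and 4.18 at 1 to 5 kb from the end. The members lay a median of 12.8 kb from the nearest gene end, 974 lay within 5 kb and 213 more than 100 kb away.

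**Figure D3:**
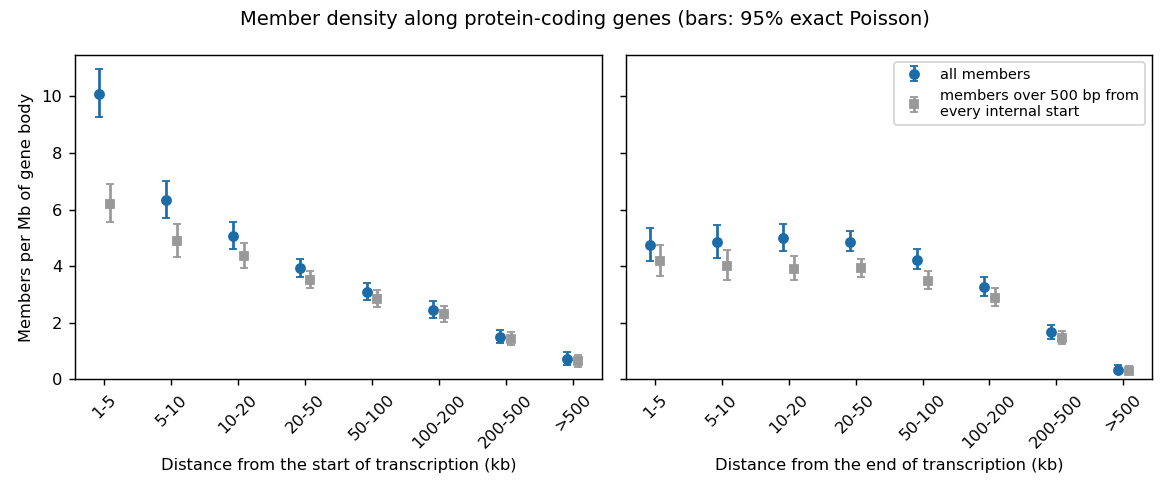
Members per Mb of eligible gene body by distance from the outermost start (left) and from the end of transcription (right), for all members and for those over 500 bp from every internal start, with 95% exact Poisson intervals. Density was 10.1 per Mb at 1 to 5 kb from the start and 4.74 at the same distance from the end.

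The members lay in 2655 of 21896 protein-coding genes (12.1%). Of these genes 2013 held 1 member, 433 held 2 and 209 held 3 or more, the last being 0.955% of protein-coding genes. The summits of 36 members lay in 2 overlapping genes and that of 1 member in 3. Host genes were long, with a median of 57.2 kb beside 17.1 kb for all protein-coding genes. The share of genes with a member rose from 1.84% below 10 kb to 14.3% at 20 to 50 kb and 39.1% at 200 to 500 kb, and was 30.1% above 500 kb. Density ran the other way, from 8.08 members per Mb in genes below 10 kb to 4.83 at 50 to 100 kb and 0.685 above 500 kb. A long gene was more likely to hold a member, but each stretch of it was less likely to.

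Host genes were also marked at their ends somewhat more often than other genes. A gene-end peak was present in 47.1% of host genes and 39.1% of the others for MPP replicate 1, and in 37.8% and 34.8% for replicate 2. For HSC the shares were 8.59% and 7.90%, with overlapping intervals. Over all protein-coding genes the shares were 40.1%, 35.1% and 7.99%. Among genes of 20 to 50 kb, host genes did not exceed the others, with 45.9% and 48.5% in MPP replicate 1 and 39.2% and 43.9% in replicate 2. At 200 to 500 kb they did, with 47.3% (41.5 to 53.2) and 32.7% (28.4 to 37.2) in replicate 1 and 34.6% and 20.4% in replicate 2. These shares moved with the window around gene ends: at 5 kb they were 77.7% and 68.2% of host genes for the MPP replicates and 13.9% for HSC. At 5 kb a member can itself count as a gene-end peak of the MPP lists, and by the rule never of the HSC list. The MPP shares at 5 kb are thus partly set by how host genes were chosen. Other genes were not counted at 5 kb.

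The genes with the strongest members, by the worse of the ranks in the MPP lists, were Cacnb2, Itsn1, Hmga2, Nkain3, Ssh1, Mcu, Dmwd, Rptor, Haus1 and Il31ra. Cacnb2 encodes a calcium channel subunit, and its member at chr2:14631644-14631985 had folds of 10.6 and 14.4 on pileups of 40 (28.6 to 54.5) and 34 (23.5 to 47.5) fragments. Its signal over background was 13.9 and 31.4, above the weakest HSC peak in both libraries, and the nearest HSC peak was 1087 kb away. Hmga2, an architectural chromatin protein of fetal and self-renewing cells, had a member 110 kb from its start with folds of 9.81 and 13.2. Mcu, the mitochondrial calcium uniporter, had folds of 9.56 and 12.3. Rptor, a subunit of the mTORC1 kinase complex, had a member 254 kb from its start with folds of 9.51 and 10.8. Il31ra, a cytokine receptor, had its stronger member 2.49 kb from the start with folds of 8.79 and 13.3. Itsn1, an endocytic scaffold, held 5 members with folds of 3.62 to 9.94 in replicate 1 and 4.67 to 14.9 in replicate 2. Of these, the member at chr16:91869494-91869985 ended 22 bp from an HSC peak, so only its edge kept it in the set.

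The genes with most members were Arhgap24, Gse1 and Sfi1 with 7 each, followed by Maml3, Ppm1h, Ptpre, Akap13, Pde4d, Zfhx3 and Zmiz1 with 6 each. Arhgap24, a Rac GTPase-activating protein, spans 698 kb, and its folds were 3.44 to 8.79 in replicate 1 and 4.53 to 9.65 in replicate 2. Gse1 held 7 members in 353 kb with folds of 3.74 to 5.56 and 3.87 to 6.70. Maml3 is a coactivator of Notch and Zmiz1 a Notch cofactor, and their members had folds of up to 8.13 and 8.33 in replicate 1. Ptpre, a tyrosine phosphatase of blood cells, had 6 members in 148 kb. By density Sfi1 stood apart with 103 members per Mb, beside 10.1 in Arhgap24 and 4.62 in Pde4d, and its 7 members were those of high local background described above.

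Among RXR and its partner receptors 7 of 20 genes held a member, beside 12.1% of all genes and 14.3% of genes of 20 to 50 kb, which include the list's median length of 43.9 kb. Without MPP replicate 2 the count was 11. Rxra and Rxrb held none, although 6 peaks of MPP replicate 1, 1 of MPP replicate 2 and 1 of HSC lay within Rxra. The retinoic acid receptors were all hosts: Rara had 3 members with folds of 4.27 to 4.81 in replicate 1 and 3.79 to 7.002 in replicate 2, Rarb had 2 and Rarg had 1 with folds of 5.62 and 7.63. An HSC peak lay 0.972 kb from the middle Rara member. Ppard, the PPAR delta gene, had 2, the stronger with folds of 6.63 and 8.02. The thyroid hormone receptor genes Thra and Thrb and the orphan receptor gene Nr4a1 had 1 each. Of 19 nuclear receptor coregulator genes 4 (21.1%) held a member, at a median length of 109 kb, where genes of 100 to 200 kb held one in 32.6% of cases. Without MPP replicate 2 the count was 10. Among them the coactivator gene Ncoa2 had 2, the stronger with folds of 4.79 and 5.97, and Ncoa3 and Nrip1 had 1 each.

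Genes known as targets of LXR, PPAR or RAR held a member in 10 of 29 cases, at a median length of 22.5 kb, where genes of 20 to 50 kb held one in 14.3%. With each MPP list as long as that of HSC the count was 0. Abca1 and Abcg1, the cholesterol exporters induced by LXR, had 1 member each, with folds of 7.80 and 6.22 in Abca1 and 5.98 and 7.26 in Abcg1. Srebf1, the regulator of fatty acid synthesis, had 1 near an internal start, 340 bp away, with folds of 4.84 and 5.74. Cpt1a, which admits fatty acids to mitochondria, had 2, the stronger with folds of 5.34 and 7.65. Among retinoid-responsive genes, Cyp26b1, which breaks retinoic acid down, had folds of 6.16 and 5.53, and Tgm2, a transglutaminase, had 4.996 and 9.74. Srebf2, which controls cholesterol synthesis and is not on the list, had a member 325 bp from the hairpin of its intronic microRNA Mir33, with folds of 4.39 and 4.66. A further 5 members lay 445 to 931 bp from other microRNA hairpins. No share over all hairpins is given here, so these are descriptions of single sites.

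In the MYC, MAX and MXD network 8 of 15 genes held a member (53.3%, 26.6 to 78.7) at a median length of 22.2 kb, a density of 18.9 per Mb (9.04 to 34.7). Genes of 20 to 50 kb held a member in 14.3% of cases. Myc itself held none, and 1 peak of MPP replicate 1 lay within it. Max, the partner of MYC, had 1 with folds of 4.39 and 4.49, and Mycn had 1 with 5.21 and 4.56. Of the MYC antagonists, Mxi1 had 1 with 7.46 and 7.65, and Mnt had 2 with at most 5.14 and 4.70. Mlxip, a partner of MLX, had folds of 7.54 and 7.24, close to those of Mlxipl. Fbxw7, a subunit of the ubiquitin ligase for MYC, had 3.88 and 4.33, and Zbtb17, which encodes the MYC partner MIZ1, had 5.07 and 4.46. The interval is wide because the list is short. The count of 8 was 5 with q at or below 1e-05, and 3 with each MPP list as long as that of HSC. Without MPP replicate 2 it was 12.

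Stem and progenitor transcription factor genes held a member in 14 of 30 cases, with 34 members and a median length of 96.8 kb. That is 46.7% (28.3 to 65.7), beside 12.1% of all genes, 24.3% of genes of 50 to 100 kb and 32.6% of genes of 100 to 200 kb. The last share lies within the interval, and the list median is near the border of these length classes. The count was 23 without MPP replicate 2. Runx1, required for blood formation, had 4, and the strongest, at chr16:92800818-92801186 and 25.1 kb from the start, had folds of 8.53 and 7.46, with an HSC peak 0.513 kb away. Nfia, which encodes nuclear factor I/A, had 6 with folds up to 6.24 and 5.77, and the forkhead gene Foxp1 had 5 with folds up to 5.84 and 6.67. Etv6, an ETS repressor, had 4, the strongest by its fold in replicate 1 at 7.26 and 7.55. Erg, Fli1, Tal1 and Meis1, members of the stem cell program, had 1, 2, 1 and 1, with folds between 3.87 and 5.94 in replicate 1. Of 20 myeloid transcription factor genes, a list with a median length of 4.54 kb, only Spi1, which encodes PU.1, held one, with folds of 4.78 and 5.39. In all genes below 10 kb the share was 1.84%. The myeloid count rested on single libraries, with 6 genes without MPP replicate 1 and 2 without MPP replicate 2.

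Genes of the lymphoid, erythroid and megakaryocyte lineages were hosts as well. Of 24 lymphoid genes 9 (37.5%, 18.8 to 59.4) held a member at a median length of 81.6 kb, beside 24.3% of genes of 50 to 100 kb, among them Lef1 with 3 and Dntt, the terminal transferase of early lymphocytes, with 2 of folds up to 5.35 and 9.79. Of 24 erythroid and megakaryocyte genes 6 (25%, 9.77 to 46.7) did, at a median length of 16.7 kb, beside 8.47% of genes of 10 to 20 kb. Itgb3, a platelet integrin, had 4, and Itga2b, its partner, had 1 with folds of 5.91 and 7.46. Klf1 and Epor, erythroid genes of 3.31 and 4.68 kb, had 1 each with folds of 4.26 and 5.54 and of 3.38 and 4.63. Their summits lay 1.17 and 1.02 kb from a gene end, just past the limit of 1000 bp. Of 25 cytokine receptor genes 7 (28.0%, 12.1 to 49.4) held a member, at a median length of 25.5 kb, beside 14.3% of genes of 20 to 50 kb. They included Tgfbr2 with 3, Cxcr4 with folds of 4.71 and 6.18, and Csf1r with 5.05 and 7.04. The Cxcr4 summit lay 1.42 kb from a gene end. Kit and Flt3, receptors of early progenitors, held none, although both had a gene-end peak in each MPP library. Peaks did lie within both genes, ends included, but none met the rule for a member. Flt3 had 5 in each MPP library and 2 in HSC, and Kit had 2 in MPP replicate 1 and 1 in HSC. Without MPP replicate 2 the erythroid and megakaryocyte count was 10, and the cytokine receptor count was 11 without either MPP replicate.

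Blood cell signalling and adhesion genes held a member in 27 of 50 cases (54.0%, 39.3 to 68.2) at a median length of 87.1 kb, where genes of 50 to 100 kb held a member in 24.3%. Inpp5d, the SHIP1 phosphatase that restrains PI3K signals, had 5 members in a span of 33.2 kb, with folds of 3.24 to 4.74 and 4.46 to 7.69. Prkce and the actin bundler Lcp1 had 4 each. Of 30 cell cycle genes 6 (20.0%, 7.71 to 38.6) did, at a median length of 15.7 kb, beside 8.47% of genes of 10 to 20 kb. Ccnd3, which encodes cyclin D3, had 5 members with folds of 2.94 to 7.10 in replicate 1 and 4.87 to 6.48 in replicate 2, and 1 of them lay 83 bp from an internal start. Its kinase partner Cdk6 had 3, with folds up to 5.01 and 6.53. Of 46 chromatin modifier genes 13 (28.3%, 15.99 to 43.5) did, at a median length of 79.7 kb, a share near the 24.3% of genes of 50 to 100 kb. The BAF subunit genes Arid1b and Arid1a had 4 and 3 members. Of 30 interferon and inflammatory genes 7 (23.3%, 9.93 to 42.3) held a member, at a median length of 14.6 kb. The share was 8.47% in genes of 10 to 20 kb and 12.1% in all genes, the latter within the interval. Among the 7 were Irak2 with 3 members and the 3.32 kb gene of the interferon regulator Irf7 with folds of 5.71 and 6.79. The Irf7 summit lay 1.55 kb from a gene end. Without MPP replicate 2 the counts were 42 for signalling, 12 for cell cycle, 23 for chromatin and 12 for interferon genes, and without MPP replicate 1 they were 24 for chromatin and 11 for interferon genes.

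Long neuronal genes held few members for their length. The 30 genes on this list had a median length of 1221 kb, and 4 of them (13.3%, 3.76 to 30.7) held a member, near the 12.1% of all genes and below the 30.1% of genes above 500 kb, whose share lies within that interval. There was 1 member each in Csmd3, Dab1, Magi2 and Galntl6, a density of 0.0946 per Mb (0.0258 to 0.242). All genes above 500 kb held 0.685 per Mb and the whole eligible sequence of 988 Mb held 3.65. The Dab1 member had folds of 8.53 and 4.81, and the Magi2 member had 3.60 and 4.41. The count of 4 genes was 10 without MPP replicate 1 and 18 without MPP replicate 2. Over the 14 lists 122 of 390 distinct genes held a member. The lists are blood genes for the most part and hold many long genes, with a median of 47.3 kb, so their shares are to be read beside those of genes of like length.

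**Figure D4:**
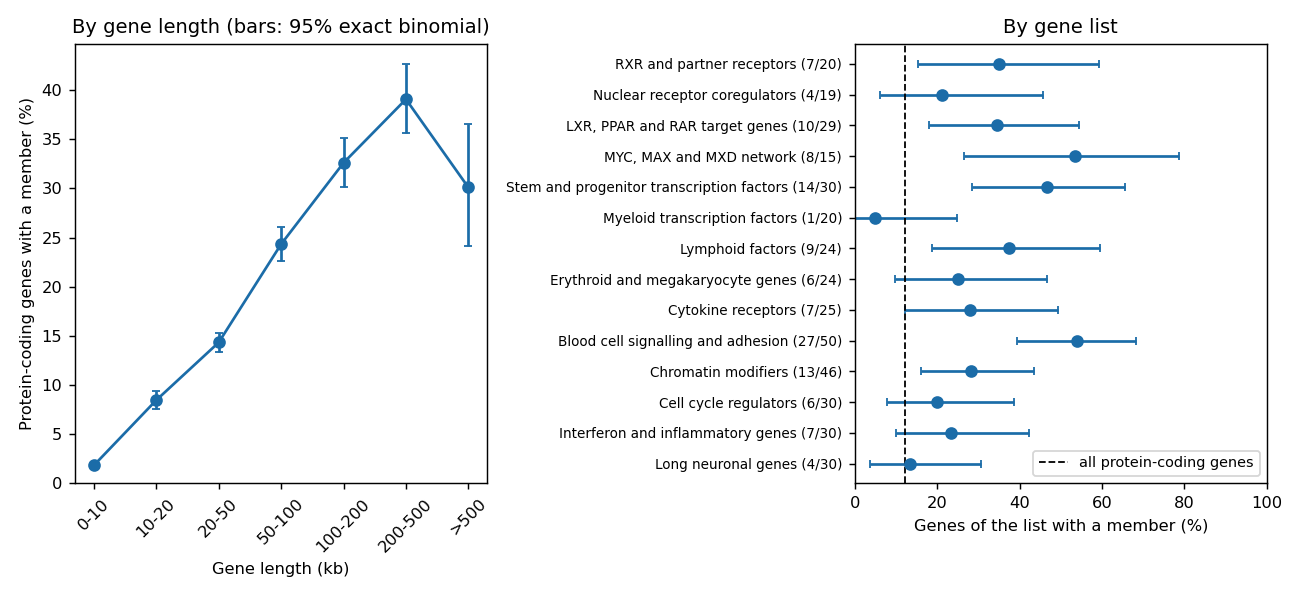
Left: percent of protein-coding genes with a member by gene length. Right: percent of the genes of each list with a member, with the numbers of genes in brackets and a dashed line at the share over all protein-coding genes; error bars are 95% exact binomial intervals. The share rose from 1.84% below 10 kb to 39.1% at 200 to 500 kb, and the signalling list stood at 54.0% and the MYC list at 53.3%.

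Members were rare on the X chromosome. It held 15 members in 43.8 Mb of eligible gene body, 0.343 per Mb (0.192 to 0.565), beside 3.81 on the autosomes, a ratio of 11.1. Single autosomes ran from 3.09 to 5.64 per Mb, with chromosomes 11 and 19 highest. All gene-body peaks showed the same direction in each list, with autosome to X ratios of 7.96 for HSC and of 8.90 and 4.66 for the MPP replicates. The low density was therefore seen in all 3 libraries, members or not. The sources used here do not give the sex of the pooled mice, and its part in the result was not tested. The Y chromosome held no member in 1.96 Mb.

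**Figure D5:**
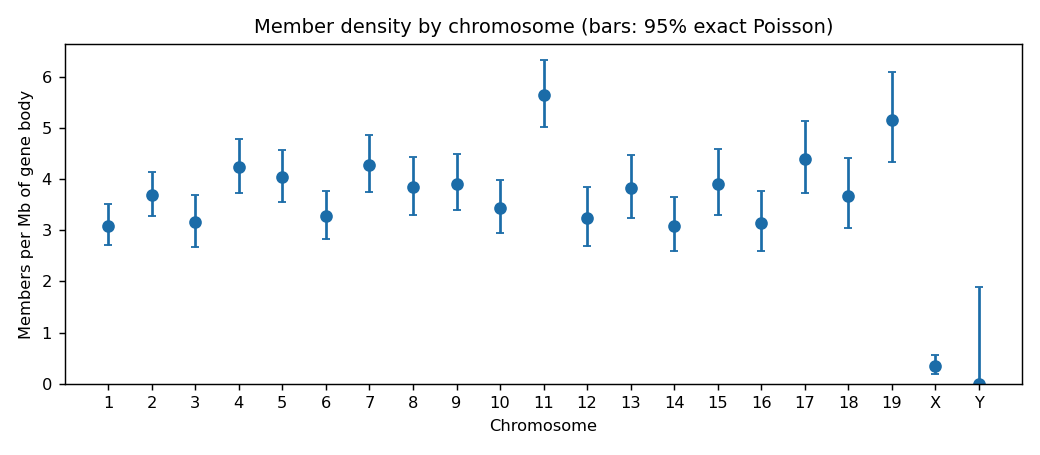
Members per Mb of eligible gene body on each chromosome, with 95% exact Poisson intervals. Autosomes lay between 3.09 and 5.64 per Mb and the X chromosome at 0.343.

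The edges of the definition were sharp on the scale of base pairs. The member nearest a gene end lay in S100a10, 1004 bp away, with folds of 4.31 and 5.74, and the nearest peak outside lay 993 bp from an end of Gm10461, with folds of 6.08 and 7.002. The smallest overlap between the MPP libraries was 4 bp, in Nomo1, and the smallest gap that kept a peak out was 3 bp, in Wdr62. A member in Por lay 3 bp from an HSC peak, and a peak in Cep250 was left out for an HSC overlap of 1 bp. The number of members rested strongly on the requirement that both MPP libraries hold the peak. It was 10289 without replicate 2 and 5766 without replicate 1, and 4328 without the HSC library.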

How the data were processed

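RXRA CUT&RUN peak lists of 1 HSC and 2 MPP libraries were used. The submitters' processing notes name MACS2 2.1.4, Bowtie2 2.3.4.1, Trim Galore 0.4.2 with cutadapt 1.9.1, and build mm10. The sources used here give neither settings nor any control library. The authors' deposited lists, 1 per library, give each peak's fold enrichment (a ratio to local background) and −log10 p-values and q-values, and a score equal to 10 times the −log10 q. The weakest q was 0.0995, 0.0971 and 0.0993.

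The authors' deposited fold and p were solved for a whole-fragment pileup and a local background (fold as pileup plus 1 over background plus 1, Poisson p, tolerance 0.001 in −log10 p). This worked for all 3601 members. Overlaps were computed in Python 3.11.15 and checked against bedtools 2.31.1, and the code was tested on simulated data. Genes and starts came from RefSeq (GRCm38.p6). Intervals are exact Poisson or exact binomial (95%) and cover counting error only. No p-values were computed.

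The members and gene lists were chosen with earlier results of these data known. Of 393 list genes 390 were found in the table. Named genes are the 10 with the best worse rank, the 10 with most members, up to 4 per list by number of members and then rank, and Rxra, Rxrb and Myc; other named genes were chosen after their values were seen, and a few items are not reported here. The motif search planned on genome sequence was not run, since genome sequence was not used here; start windows were searched in its place, a choice made after seeing the data. Alternatives covered overlap, gene-end window, q, list length, the strongest 1% of peaks, summit or midpoint, and each library left out.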

Additional observations from a re-analysis of the deposited data

How the results depend on the processing

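With q at or below 1e-05 in all lists there were 1981 members in 1637 host genes, and 15.8% of members lay at an internal start; 1484 of these host genes were among the 2655. With each MPP list held to its strongest peaks so that it is as long as that of HSC there were 272 members in 267 genes, 14 of the list genes held one, and 22.0% lay at an internal start. These were 4 signalling genes, 3 of the MYC network, 2 stem factors and 2 lymphoid factors. Partner receptors, coregulators and cytokine receptors had 1 each. The lists of LXR, PPAR and RAR targets, myeloid factors, and erythroid and megakaryocyte genes then had 0. So did those of chromatin modifiers, cell cycle, interferon and long neuronal genes. Leaving out 1 library gave 4328 to 10289 members, 2999 to 5547 host genes, 134 to 212 list genes and 8.30% to 12.8% at an internal start; the lowest of each count is without HSC, the highest without MPP replicate 2. The share at internal starts was 11.1% and 8.90% with gene-end windows of 2 kb and 5 kb, and 10.6% and 14.3% with start windows of 200 and 1000 bp; these start windows, chosen after seeing the data, left GGAAGT in 36.1% and 32.5% of member starts. With gene-end windows of 500 bp and 5 kb, host genes with a gene-end peak were 7.31% and 13.9% in HSC, 39.1% and 77.7% in MPP replicate 1, and 31.9% and 68.2% in MPP replicate 2. The MPP shares at 5 kb also count members within 5 kb of the ends of their host genes, which the HSC list lacks by the rule. The cause of these changes was not tested beyond the fewer or more peaks each setting admits. Under the other alternatives the members numbered 2627 to 3962. No paired analysis was possible because HSC has 1 library and no test was made. Pileups of 20 and 13 fragments limit the precision of single folds.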
